A study of Mus musculus with 12 samples.

Results

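Mitosis and spindle genes were followed by RNA sequencing in C2C12 cells, a mouse myoblast line that leaves the cell cycle and fuses into myotubes when serum is withdrawn. The set holds 30 genes picked by symbol with earlier results of these data known. All 30 are among the 21232 gene symbols of the counts table, with Knl1 listed there under its older name Casc5. The libraries fall into 4 groups of 3, with the replicates lettered A, B and C. Cells of the TNF group were kept 48 h in differentiation medium with 2% horse serum and TNF alpha at 10 ng/ml. Cells of the Fbxl2 siRNA group were kept 48 h in the same medium after silencing of Fbxl2, an F-box gene of a ubiquitin ligase. Control cells spent 48 h in that medium, and proliferation cells were sampled at 0 h in growth medium with 10% fetal bovine serum. The title of the series concerns regulation of muscle formation by TNF through the Fbxl2 promoter. Whether the control and TNF cells received a non-targeting siRNA is not given in the labels, so silencing and transfection cannot be told apart here. Sample numbers in the library titles set the A libraries of all 4 groups apart from the B and C libraries, for a reason not given. Nothing in the labels ties the letters to separate cultures. The p-values therefore cover the spread among libraries of a group and no more, and that spread may be technical.

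In dividing cells, Cdk1 bound to cyclins drives entry into mitosis, spindle motors and microtubule-binding proteins build the spindle, and kinetochores attach the chromosomes to it. The spindle checkpoint holds back the anaphase-promoting complex, a ubiquitin ligase, until every kinetochore is attached. The complex then marks cyclin B and other proteins for destruction, the sister chromatids part, and the midzone motors and passenger proteins guide cytokinesis. Transcription of these genes peaks late in the cycle. It is held down in resting cells by the DREAM complex, which binds the CHR element of their promoters, and is raised in dividing cells by B-Myb and FoxM1, while NF-Y binds nearby CCAAT boxes. Myoblasts that form myotubes leave the cycle for good, whereas a part of a C2C12 culture stays undifferentiated as reserve cells.

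Promoter sequences of the members were searched for short motifs. RefSeq promoter windows (build GRCm38.p6, 250 bases before to 50 bases after the annotated start) were at hand for 26 of the 30 members, with 27 windows because Prc1 has a pair of starts whose windows overlap. Exact matches were sought on both strands to the CHR element (TTTGAA or TTCGAA), the CCAAT box (CCAAT), an E2F-type site (TTTGGCGC, TTTCCCGC or TTTCGCGC) and the GC box bound by SP1 (GGGCGG). The sequences below run 5′ to 3′ on the strand of the gene up to its most upstream annotated exon, and capitals mark the letters of CHR and CCAAT matches read on either strand. Cdk1, Ccnb1 and Plk1 are shown as the kinase, the cyclin and the regulator at the centre of mitotic entry. Top2a, Cdc20 and Ncapg were added, after values had been seen, as members with a CHR match in the shown stretch and with different sizes of response.
Cdk1 (chr10:69352939-69353162, minus strand): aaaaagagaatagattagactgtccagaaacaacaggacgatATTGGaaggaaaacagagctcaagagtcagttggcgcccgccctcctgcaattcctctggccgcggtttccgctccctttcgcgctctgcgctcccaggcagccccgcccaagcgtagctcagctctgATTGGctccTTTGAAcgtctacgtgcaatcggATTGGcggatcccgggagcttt
Ccnb1 (chr13:100786571-100786736, minus strand): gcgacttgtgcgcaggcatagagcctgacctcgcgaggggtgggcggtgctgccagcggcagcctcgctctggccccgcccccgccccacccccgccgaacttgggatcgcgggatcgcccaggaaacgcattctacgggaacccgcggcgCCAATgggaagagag
Plk1 (chr7:122159185-122159434, plus strand): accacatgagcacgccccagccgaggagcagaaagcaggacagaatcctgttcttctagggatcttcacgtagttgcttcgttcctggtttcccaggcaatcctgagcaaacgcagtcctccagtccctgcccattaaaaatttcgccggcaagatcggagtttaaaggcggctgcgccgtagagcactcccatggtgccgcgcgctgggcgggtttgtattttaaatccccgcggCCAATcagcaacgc
Top2a (chr11:99024190-99024439, minus strand): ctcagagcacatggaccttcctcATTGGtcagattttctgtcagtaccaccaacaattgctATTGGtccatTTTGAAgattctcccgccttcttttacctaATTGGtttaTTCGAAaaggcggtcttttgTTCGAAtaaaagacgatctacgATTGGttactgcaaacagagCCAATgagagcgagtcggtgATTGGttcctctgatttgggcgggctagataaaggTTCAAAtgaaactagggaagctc
Cdc20 (chr4:118437353-118437593, minus strand): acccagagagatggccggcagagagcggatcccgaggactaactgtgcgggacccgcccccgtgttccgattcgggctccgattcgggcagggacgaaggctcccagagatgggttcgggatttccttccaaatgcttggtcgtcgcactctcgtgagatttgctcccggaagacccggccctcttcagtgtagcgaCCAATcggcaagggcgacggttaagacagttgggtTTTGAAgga
Ncapg (chr5:45669675-45669918, plus strand): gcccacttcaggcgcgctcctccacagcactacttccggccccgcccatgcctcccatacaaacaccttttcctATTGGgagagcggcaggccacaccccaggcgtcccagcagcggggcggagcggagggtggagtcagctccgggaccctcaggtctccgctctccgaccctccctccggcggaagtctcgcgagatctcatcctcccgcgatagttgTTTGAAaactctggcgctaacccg

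The stretch shown for Cdk1 holds 1 CHR match and 3 CCAAT matches, with the CHR match between the nearer pair of CCAAT matches, and that for Top2a holds 4 CHR and 6 CCAAT matches. Cdc20 and Ncapg have 1 CHR and 1 CCAAT match each in the shown bases. Plk1 has its CHR match past the shown stretch, from base 31 to base 36 after the start, and Ccnb1 has 2 CCAAT matches in its window and no CHR match by these letters.

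Over all windows, a CHR match occurred in 22 of the 27 member windows (81.5%), against 13.8% of the 12396 windows of the genes tested for expression and 19.2% of all 32851 windows. A CCAAT match occurred in 23 of the 27 member windows (85.2%), against 37.9% of the windows of tested genes. The GC box was found in 88.9% of the member windows, against 61.3% of the windows of tested genes, and the E2F-type site in 11.1%, against 3.21%. By gene, 21 of 26 members had a CHR match and 20 had both a CHR and a CCAAT match. The 5 members with no CHR match in the window were Birc5, Ccnb1, Cenpe, Melk and Nusap1. A match is a run of letters and not a measured binding site.

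**Figure D1:**
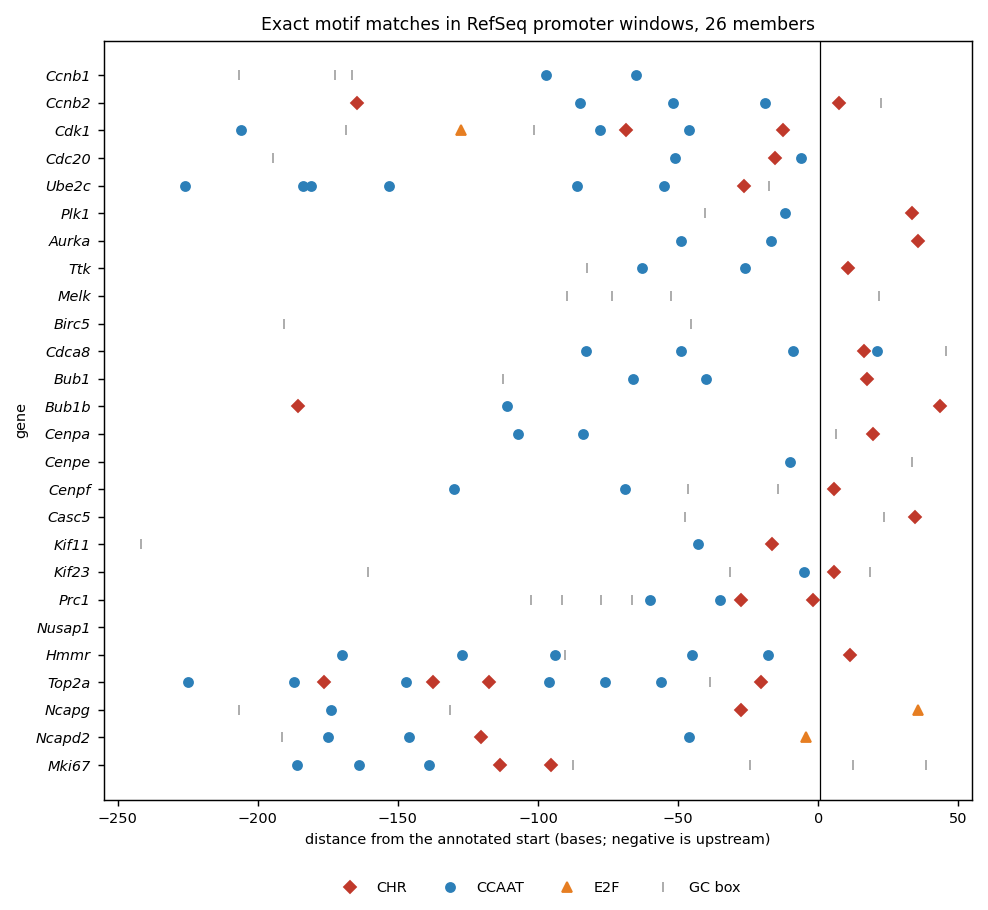
Positions of exact matches to 4 motifs in the promoter windows of 26 members. The horizontal axis is the distance from the annotated start in bases, and each row is a gene. CHR matches (red diamonds) occur in 21 of the 26 members, and CCAAT matches (blue circles) mostly lie upstream of the start.

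Library totals ran from 26416978 to 32917763 counts and 12736 genes passed the filter on low counts, all 30 members among them. The lowest count of a member in any library was 458, and the coefficient of variation of a member's level within a group had a median of 5.69%. Levels are in CPM, counts scaled to library totals that were multiplied by TMM factors. Fbxl2 itself averaged 28.9 ± 1.05 CPM in TNF libraries, 22.2 ± 1.52 in Fbxl2 siRNA libraries, 32.9 ± 1.30 in control libraries and 25.9 ± 1.71 in proliferation libraries (SD, n = 3 each). Its level in the Fbxl2 siRNA group was 0.675 times that in the control group (log2 fold change -0.57 ± 0.06 SE, edgeR adjusted p = 1.67e-07). Of the myotube markers, Myog averaged 79.9 CPM in TNF, 104 in Fbxl2 siRNA, 302 in control and 22.5 in proliferation libraries. The 6 myotube markers summed to 477 to 661 CPM in TNF libraries, 688 to 1081 in Fbxl2 siRNA libraries, 2161 to 2577 in control libraries and 46.9 to 61.4 in proliferation libraries, with none at 0. The 5 myoblast or reserve cell markers summed to 753 to 760 CPM in TNF, 784 to 908 in Fbxl2 siRNA, 1132 to 1163 in control and 684 to 817 in proliferation libraries. Most of that sum was Itga7, and its members did not move as one: Cd34 had 106, 106 and 115 CPM in TNF libraries, against 36.5, 40.9 and 40.4 in control libraries, and Myf5 was highest in Fbxl2 siRNA libraries (61.0, 64.2 and 59.4 CPM). The 4 fibroblast markers summed to 152 to 164 CPM in TNF, 386 to 460 in Fbxl2 siRNA, 498 to 528 in control and 42.2 to 52.2 in proliferation libraries. Most of the sum at 48 h was Dcn, whereas Pdgfra was highest in TNF libraries (35.1, 29.6 and 32.6 CPM, against 15.2, 15.3 and 16.7 in control libraries) and Dpt in Fbxl2 siRNA libraries (11.0, 9.77 and 11.5 CPM, against 4.64, 5.15 and 4.46 in control libraries). Endothelial markers summed to at most 2.62 CPM and macrophage markers to at most 2.95 CPM in any library, with Adgre1 at 0 in every group, and adipocyte markers to at most 13.7 CPM, with Plin1 at 0 in the 48 h groups.

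All 30 members had the same order of mean levels: highest in proliferation libraries, then Fbxl2 siRNA, then TNF, and lowest in control libraries. The step between Fbxl2 siRNA and TNF was not called for Hmmr, Casc5, Top2a, Mki67 and Ttk. For Ttk and Mki67 its sign changed under some alternative settings. How many of all genes tested had this order was not counted. Summed over the members, the level was 2465 ± 53.4 CPM in TNF libraries, 3132 ± 60.0 CPM in Fbxl2 siRNA libraries, 1374 ± 114 CPM in control libraries and 5102 ± 236 CPM in proliferation libraries (SD, n = 3 each). Against the proliferation mean, the median member stood at 46.2% in TNF libraries (36.2% to 63.9%), 62.9% in Fbxl2 siRNA libraries (46.9% to 75.1%) and 26.0% in control libraries (19.0% to 37.1%). In bulk RNA, fewer cycling cells and less of these transcripts in each cell cannot be told apart. Among the 48 h groups the summed myotube markers were lowest in TNF libraries and highest in control libraries, with Fbxl2 siRNA libraries between them. The part of any marker list in the results for the mitosis genes was not tested.

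**Figure D2:**
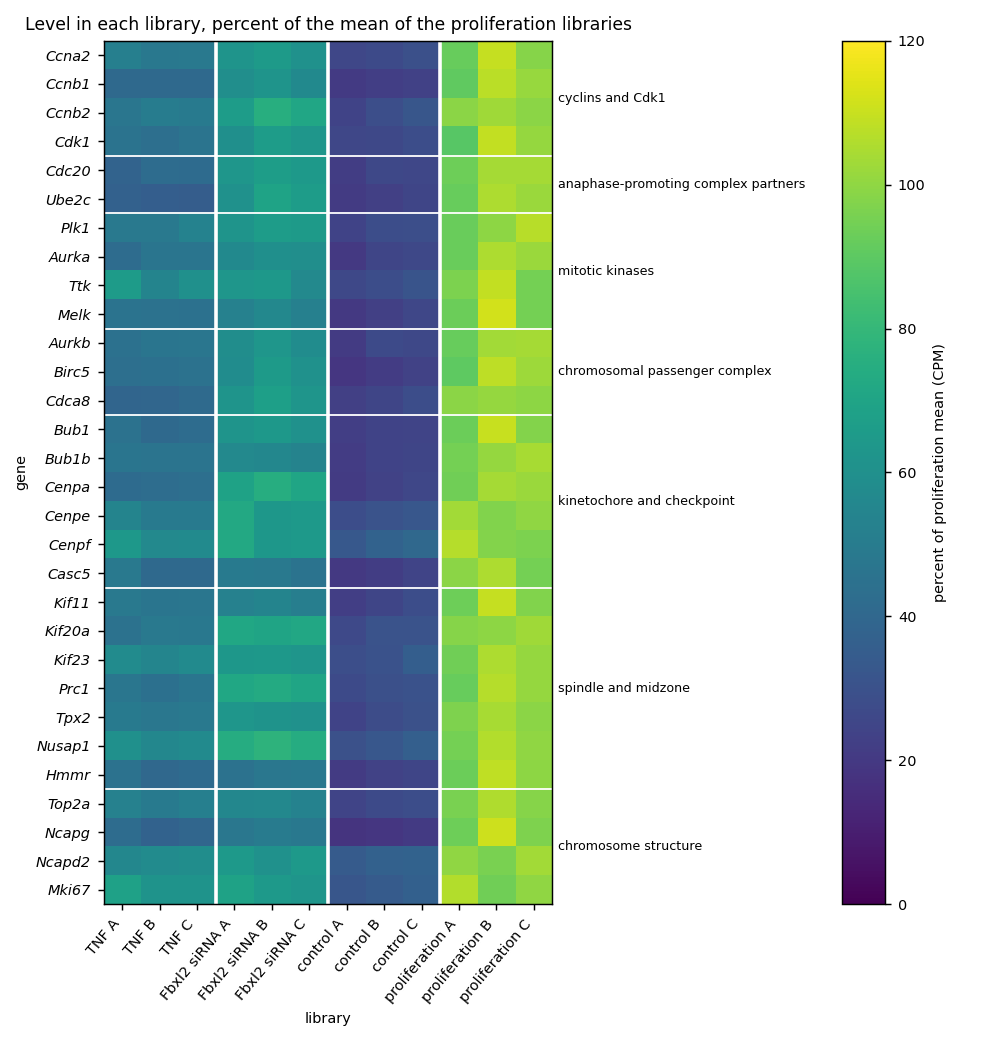
Level of the 30 genes in each of the 12 libraries, as a percentage of the gene's mean CPM in the proliferation libraries. Rows are genes ordered by role and columns are libraries. The control libraries are the darkest block in every row, with group means of 19.0% to 37.1%, and the Fbxl2 siRNA block is lighter than the TNF block for most genes.

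After 48 h of differentiation the whole set was lower. In control libraries 30 of the 30 members were lower than in proliferation libraries at an edgeR adjusted p under 0.05, where 38.9% of all genes tested were called lower. The median log2 fold change of the members was -1.94, against 0.00 for all genes tested, and every member fell at least 2-fold. The largest falls were those of Ncapg, a condensin subunit (-2.39 ± 0.06 SE), and Birc5, the passenger protein survivin (-2.23 ± 0.08). The smallest were those of Cenpf, a large kinetochore protein (-1.43 ± 0.07), and Ncapd2, another condensin subunit (-1.46 ± 0.05). By role, the medians ran from -1.72 for chromosome structure to -2.09 for the kinetochore genes and for the partners of the anaphase-promoting complex.

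With TNF, 30 of the 30 members were higher than in control libraries (edgeR adjusted p under 0.05), where 31% of all genes tested were called higher. The median log2 fold change of the members was 0.87 and that of all genes tested 0.03, and 4 members rose at least 2-fold. Over all genes, 3954 were called higher and 3006 lower with TMM scaling, but 3186 higher and 3728 lower on library totals with no scaling factors. On that scale, which was added after the data had been seen, the median of the members was 0.81. The rises were close to one another in size. The smallest were 0.66 ± 0.05 for Ncapd2, 0.67 ± 0.07 for Cdca8 and 0.67 ± 0.06 for Prc1, a midzone microtubule bundler. The largest were 1.07 ± 0.07 for Ncapg and 1.08 ± 0.08 for Ttk, the checkpoint kinase Mps1.

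With Fbxl2 siRNA, 30 of the 30 members were higher than in control libraries (edgeR adjusted p under 0.05), where 34.1% of all genes tested were called higher. The median log2 fold change was 1.24, against 0.03 for all genes tested, and 26 members rose at least 2-fold. The largest rises were those of Cenpa, the centromeric histone H3 variant (1.62 ± 0.06 SE), Ube2c, the ubiquitin-conjugating enzyme of the anaphase-promoting complex (1.53 ± 0.07), and Birc5 (1.53 ± 0.08). The smallest were those of Ncapd2 (0.80 ± 0.05) and Cenpf (0.85 ± 0.07). Both comparisons use the same control libraries. In control library A each of the 30 members was at its lowest among the control libraries, and that library also had the highest Myog (328 CPM, against 290 and 290) and Myh3 (838 CPM, against 691 and 681). Without it the median of the members was 0.80 for TNF, 1.18 for Fbxl2 siRNA and -1.89 for control over proliferation, and all 30 were called in each. In other groups, proliferation library A was lowest for 23 members, Fbxl2 siRNA library A lowest for 12 and TNF library A highest for 18. Myog was also highest in library A of the TNF and proliferation groups, but not of the Fbxl2 siRNA group.

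**Figure D3:**
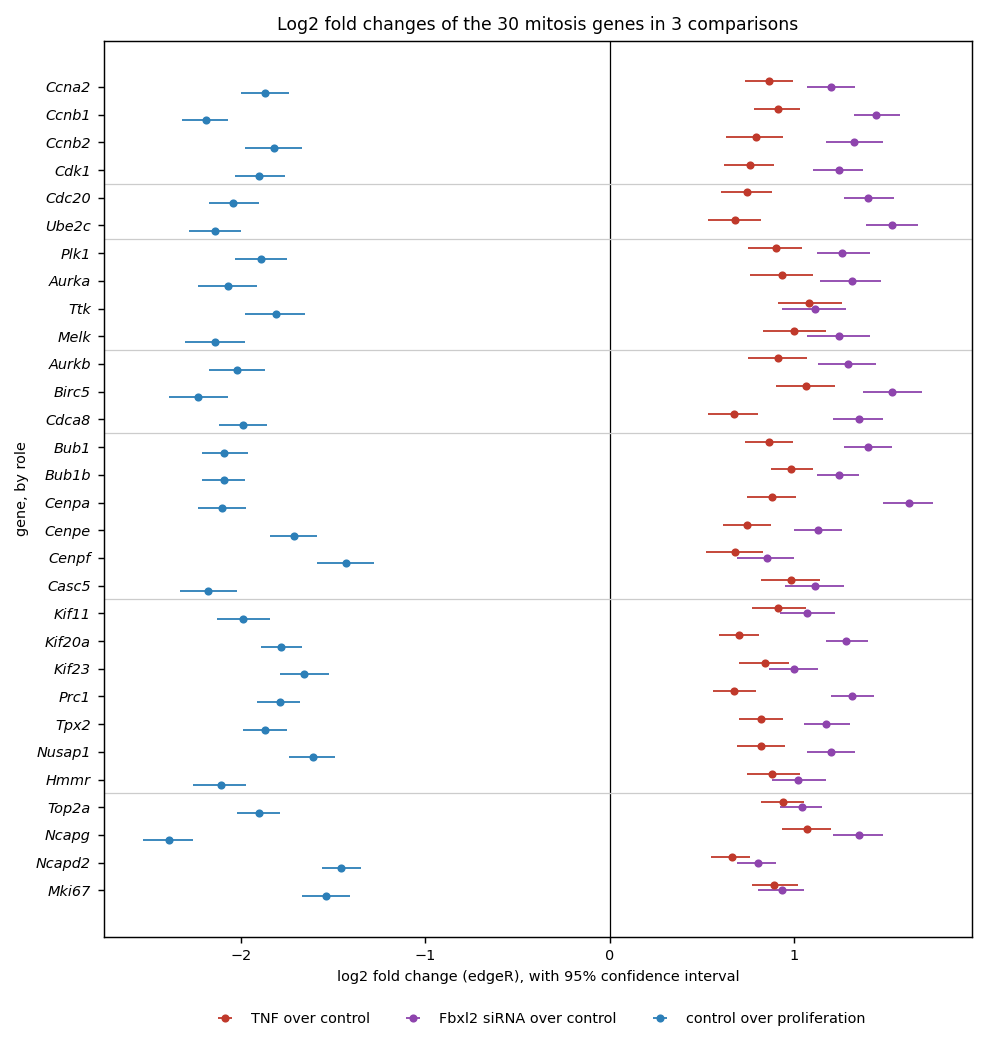
Log2 fold changes of the 30 genes, with 95% confidence intervals from edgeR, for TNF over control (red), Fbxl2 siRNA over control (purple) and control over proliferation (blue). Genes are ordered by role. All red and purple points lie right of 0, between 0.66 and 1.62, and all blue points lie between -2.39 and -1.43.

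Among the cyclins and Cdk1, Ccnb1 encodes cyclin B1, which carries Cdk1 into mitosis (chromosome 13, 100778650 to 100786570 in GRCm38, minus strand). It had 96.3, 96.2 and 96.5 CPM in TNF libraries, 139, 146 and 134 in Fbxl2 siRNA libraries, 48.2, 52.1 and 54.0 in control libraries and 213, 253 and 239 in proliferation libraries. No library of one group overlapped another group, and the TNF libraries were almost equal. Cdk1, the kinase itself (chromosome 10, 69335146 to 69352938, minus strand), had 111, 107 and 112 CPM in TNF libraries, 145, 161 and 153 in Fbxl2 siRNA libraries, 62.3, 63.6 and 69.4 in control libraries and 216, 265 and 246 in proliferation libraries. Its groups were also separate, with the control libraries lowest. The log2 fold change over control for Ccnb1 was 0.91 ± 0.06 (SE) with TNF and 1.44 ± 0.06 with Fbxl2 siRNA, and for Cdk1 0.76 ± 0.06 and 1.24 ± 0.06. Ccna2, cyclin A2 of late S phase and mitotic entry, averaged 154 ± 6.17 CPM in TNF, 196 ± 7.12 in Fbxl2 siRNA, 85.1 ± 6.19 in control and 312 ± 26.8 in proliferation libraries (SD, n = 3 each). Ccnb2, cyclin B2, averaged 53.9 ± 1.70, 78.0 ± 4.84, 31.3 ± 4.42 and 110 ± 2.32 CPM in TNF, Fbxl2 siRNA, control and proliferation libraries. These 4 genes rose by 0.76 to 0.91 with TNF and by 1.20 to 1.44 with Fbxl2 siRNA on the log2 scale.

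The partners of the anaphase-promoting complex had a small rise with TNF and a large one with Fbxl2 siRNA. Ube2c (chromosome 2, 164769898 to 164778822, plus strand) had 52.1, 50.1 and 49.8 CPM in TNF libraries, 85.3, 97.6 and 92.7 in Fbxl2 siRNA libraries, 29.0, 31.5 and 34.9 in control libraries and 129, 147 and 143 in proliferation libraries. The TNF libraries lay nearer to the control libraries than to the Fbxl2 siRNA libraries. Cdc20, which activates the complex and is the target of the checkpoint, averaged 55.1 ± 3.36 CPM in TNF, 87.2 ± 2.54 in Fbxl2 siRNA, 33.0 ± 2.93 in control and 135 ± 8.37 in proliferation libraries. Over control, Ube2c rose by 0.68 ± 0.07 with TNF and 1.53 ± 0.07 with Fbxl2 siRNA, and Cdc20 by 0.74 ± 0.07 and 1.40 ± 0.06 (log2, SE). An exon of Ube2c overlaps on the opposite strand with Tnnc2, a troponin gene of fast muscle, and the strand setting of the counting is not given in the sources used here. Tnnc2 averaged 17.7 ± 2.74 CPM in TNF, 50.4 ± 9.67 in Fbxl2 siRNA, 85.1 ± 10.8 in control and 2.00 ± 0.452 in proliferation libraries, and its part in the Ube2c counts was not tested.

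Of the mitotic kinases, Plk1 encodes the polo-like kinase of mitotic entry and spindle assembly (chromosome 7, 122159439 to 122169873, plus strand). It had 45.4, 45.3 and 49.5 CPM in TNF libraries, 58.1, 62.0 and 60.8 in Fbxl2 siRNA libraries, 22.3, 26.4 and 26.7 in control libraries and 86.5, 93.0 and 100 in proliferation libraries. The 4 groups were separate, and the rise over control was 0.90 ± 0.07 with TNF and 1.26 ± 0.07 with Fbxl2 siRNA (log2, SE). Ttk had 37.0, 30.4 and 33.9 CPM in TNF libraries, 35.4, 36.0 and 31.6 in Fbxl2 siRNA libraries, 14.6, 16.0 and 17.4 in control libraries and 54.0, 61.2 and 53.2 in proliferation libraries. Here the TNF and Fbxl2 siRNA libraries were intermixed, both above all control libraries. Aurka, the kinase of the spindle poles, averaged 37.4 ± 2.16 CPM in TNF, 48.5 ± 1.14 in Fbxl2 siRNA, 19.7 ± 2.73 in control and 82.6 ± 5.36 in proliferation libraries. Melk, a kinase whose transcript follows the cell cycle, averaged 33.0 ± 0.335, 38.9 ± 1.51, 16.5 ± 1.97 and 72.7 ± 7.61 CPM in TNF, Fbxl2 siRNA, control and proliferation libraries. The rise with TNF was of like size in the 4 kinases, from 0.90 to 1.08, and that with Fbxl2 siRNA ran from 1.11 to 1.31.

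The chromosomal passenger complex corrects faulty kinetochore attachments and later acts at the midzone. Its kinase Aurkb (chromosome 11, 69045647 to 69051664, plus strand) had 33.3, 34.5 and 34.9 CPM in TNF libraries, 43.7, 46.7 and 43.1 in Fbxl2 siRNA libraries, 15.6, 20.1 and 19.3 in control libraries and 68.4, 76.7 and 77.0 in proliferation libraries. The groups did not overlap, and Aurkb rose over control by 0.91 ± 0.08 with TNF and 1.29 ± 0.08 with Fbxl2 siRNA (log2, SE). Birc5 had 54.5, 55.2 and 55.9 CPM in TNF libraries, 72.4, 81.3 and 75.3 in Fbxl2 siRNA libraries, 23.5, 26.6 and 29.6 in control libraries and 112, 134 and 127 in proliferation libraries. Cdca8, the subunit borealin, had 30.5, 30.8 and 32.1 CPM in TNF libraries, 48.3, 52.6 and 48.7 in Fbxl2 siRNA libraries, 17.6, 19.4 and 22.0 in control libraries and 77.1, 78.6 and 77.5 in proliferation libraries. The 3 genes differed in the TNF group: over control Birc5 rose by 1.06 ± 0.08 and Cdca8 by 0.67 ± 0.07, while with Fbxl2 siRNA the values were 1.53 ± 0.08 and 1.35 ± 0.06.

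At the kinetochore, Cenpa (chromosome 5, 30666777 to 30674830, plus strand) had 39.2, 40.3 and 40.9 CPM in TNF libraries, 64.8, 70.0 and 66.2 in Fbxl2 siRNA libraries, 19.5, 22.3 and 23.9 in control libraries and 88.1, 97.3 and 95.7 in proliferation libraries. The Fbxl2 siRNA libraries stood at 71.5% of the proliferation mean, and the groups were separate. Bub1b, the checkpoint protein BubR1 (chromosome 2, 118598211 to 118641591, plus strand), had 77.0, 76.0 and 76.3 CPM in TNF libraries, 93.1, 92.0 and 88.9 in Fbxl2 siRNA libraries, 35.4, 39.8 and 41.1 in control libraries and 157, 167 and 172 in proliferation libraries. Its TNF libraries were close to one another and lay below all Fbxl2 siRNA libraries. Cenpf had 83.7, 74.2 and 75.0 CPM in TNF libraries, 94.7, 83.5 and 84.3 in Fbxl2 siRNA libraries, 43.1, 49.4 and 53.4 in control libraries and 140, 128 and 126 in proliferation libraries. TNF library A of this gene lay above the lowest Fbxl2 siRNA library. Casc5, the kinetochore scaffold that recruits Bub1, had 47.5, 40.2 and 40.1 CPM in TNF libraries, 48.1, 47.5 and 44.6 in Fbxl2 siRNA libraries, 19.4, 21.5 and 24.2 in control libraries and 97.1, 103 and 92.9 in proliferation libraries, so that TNF and Fbxl2 siRNA overlapped through TNF library A. Bub1, the checkpoint kinase, averaged 61.7 ± 2.90 CPM in TNF, 89.4 ± 2.46 in Fbxl2 siRNA, 34.0 ± 1.94 in control and 144 ± 12.2 in proliferation libraries. Cenpe, a motor that moves chromosomes along microtubules, averaged 74.4 ± 4.08, 97.7 ± 7.16, 44.6 ± 3.35 and 146 ± 4.74 CPM in TNF, Fbxl2 siRNA, control and proliferation libraries. The log2 rise over control in these 6 genes ran from 0.68 to 0.98 with TNF and from 0.85 to 1.62 with Fbxl2 siRNA, the widest range of any role in the Fbxl2 siRNA comparison.

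Among the spindle and midzone genes, Kif11 encodes the motor that pushes the spindle poles apart (chromosome 19, 37376403 to 37421859, plus strand). It had 83.3, 79.5 and 80.2 CPM in TNF libraries, 90.5, 92.7 and 88.1 in Fbxl2 siRNA libraries, 38.2, 43.1 and 48.3 in control libraries and 160, 187 and 166 in proliferation libraries. The TNF and Fbxl2 siRNA libraries were separate but close. Prc1 had 115, 109 and 114 CPM in TNF libraries, 175, 180 and 173 in Fbxl2 siRNA libraries, 65.9, 72.0 and 74.4 in control libraries and 226, 261 and 248 in proliferation libraries, with a wide gap between TNF and Fbxl2 siRNA. Hmmr, a microtubule-associated protein and hyaluronan receptor, had 82.2, 73.6 and 76.1 CPM in TNF libraries, 81.9, 86.5 and 86.9 in Fbxl2 siRNA libraries, 37.4, 43.0 and 45.5 in control libraries and 168, 196 and 180 in proliferation libraries. The highest TNF library of Hmmr passed the lowest Fbxl2 siRNA library. Nusap1, which bundles spindle microtubules near chromosomes, had 70.4, 64.8 and 67.4 CPM in TNF libraries, 86.8, 90.8 and 86.9 in Fbxl2 siRNA libraries, 34.8, 37.9 and 42.5 in control libraries and 111, 124 and 117 in proliferation libraries. In the Fbxl2 siRNA group its level was 75.1% of the proliferation mean, the highest share among the 30 members. Tpx2, the activator of Aurora A on the spindle, averaged 119 ± 1.09 CPM in TNF, 152 ± 3.31 in Fbxl2 siRNA, 67.5 ± 7.12 in control and 246 ± 9.69 in proliferation libraries. Of the midzone motors, Kif20a averaged 123 ± 5.00, 184 ± 2.24, 75.7 ± 6.37 and 259 ± 5.75 CPM, and Kif23 66.8 ± 1.86, 74.7 ± 0.968, 37.5 ± 4.48 and 118 ± 6.70 CPM, in TNF, Fbxl2 siRNA, control and proliferation libraries. In this role the log2 rises over control ran from 0.67 to 0.91 with TNF and from 1.00 to 1.31 with Fbxl2 siRNA.

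The 4 genes of chromosome structure were the role with the smallest median rise with Fbxl2 siRNA (0.98). Top2a, the topoisomerase that untangles sister chromatids (chromosome 11, 98992943 to 99024189, minus strand), had 362, 337 and 358 CPM in TNF libraries, 384, 385 and 365 in Fbxl2 siRNA libraries, 169, 187 and 196 in control libraries and 661, 729 and 676 in proliferation libraries. The highest TNF library and the lowest Fbxl2 siRNA library differed by less than the spread within either group. Mki67, the coat protein of mitotic chromosomes used as a proliferation marker (chromosome 7, 135689784 to 135716361, minus strand), had 184, 165 and 165 CPM in TNF libraries, 185, 173 and 168 in Fbxl2 siRNA libraries, 85.6, 91.9 and 99.2 in control libraries and 284, 252 and 268 in proliferation libraries. TNF and Fbxl2 siRNA libraries overlapped and both lay between control and proliferation. Ncapg had 63.4, 56.9 and 59.1 CPM in TNF libraries, 71.4, 74.6 and 71.9 in Fbxl2 siRNA libraries, 26.8, 28.8 and 30.3 in control libraries and 140, 166 and 145 in proliferation libraries. Its control mean was 19.0% of the proliferation mean, the lowest share among the members. Ncapd2 had 68.5, 71.0 and 72.2 CPM in TNF libraries, 80.0, 74.5 and 79.1 in Fbxl2 siRNA libraries, 42.1, 45.8 and 46.5 in control libraries and 123, 118 and 127 in proliferation libraries, with all groups separate. Over control, Top2a rose by 0.94 ± 0.06 with TNF and 1.04 ± 0.06 with Fbxl2 siRNA, and Mki67 by 0.89 ± 0.06 and 0.93 ± 0.06 (log2, SE).

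**Figure D4:**
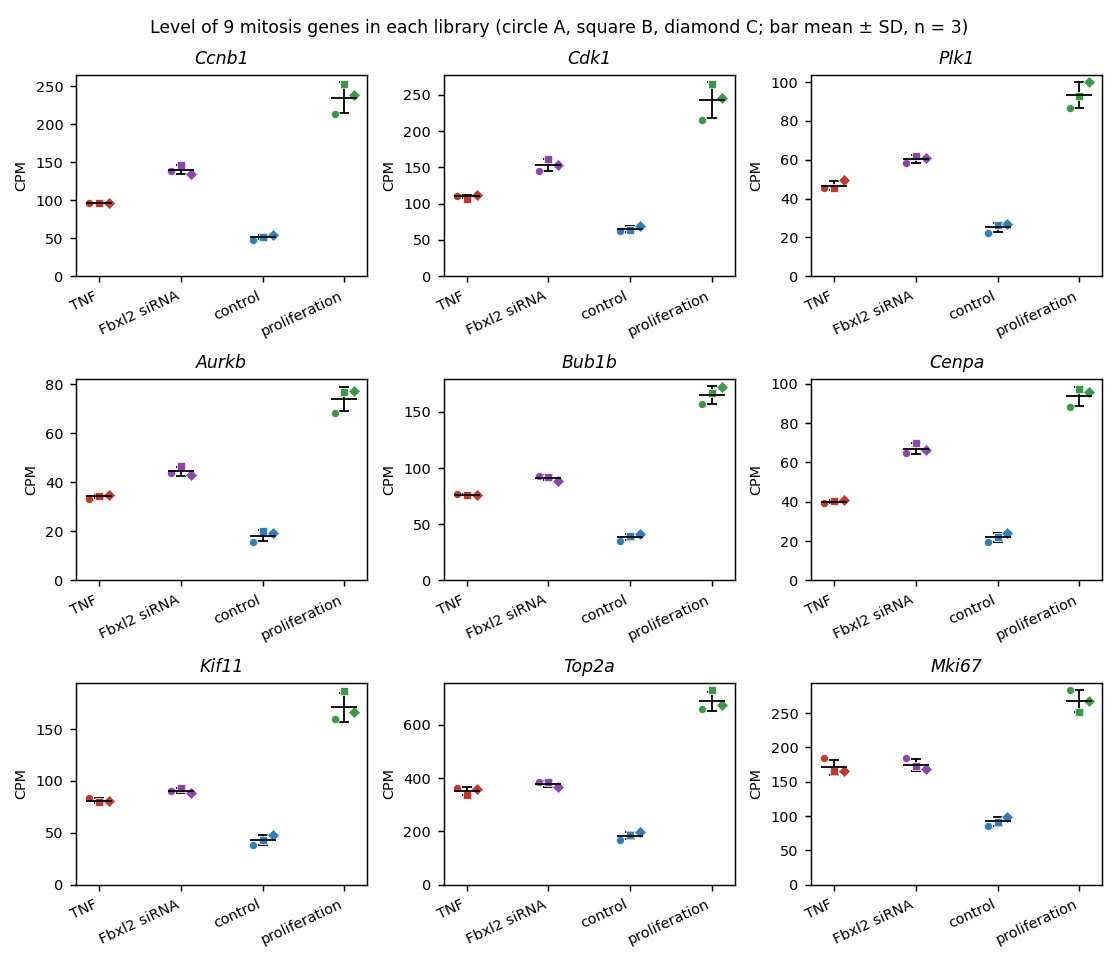
CPM of 9 genes in each library, in TNF, Fbxl2 siRNA, control and proliferation groups from left to right, with the mean and SD of 3 libraries. In every panel the control libraries are lowest and the proliferation libraries highest. TNF lies below Fbxl2 siRNA by a wide margin for Ccnb1 and Cenpa and overlaps with it for Mki67.

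TNF and Fbxl2 siRNA libraries were then set against each other. Of the 30 members, 25 were lower in TNF libraries at an edgeR adjusted p under 0.05, where 30.6% of all genes tested were called lower. The median log2 fold change of the members was -0.37, against -0.01 for all genes tested, and the difference was uneven across members. Ube2c had the largest difference (-0.86 ± 0.06 SE, edgeR adjusted p = 3.56e-10), followed by Cenpa (-0.74 ± 0.06), Cdca8 (-0.68 ± 0.06), Cdc20 (-0.66 ± 0.06), Prc1 (-0.64 ± 0.05) and Kif20a (-0.59 ± 0.05). No member reached a 2-fold difference. By role, the medians were -0.76 for the partners of the anaphase-promoting complex, -0.51 for cyclins and Cdk1, -0.47 for the passenger complex, -0.36 for the spindle and midzone, -0.32 for the kinetochore, -0.30 for the kinases and -0.12 for chromosome structure, where 2 of 4 genes were called.

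Ttk, Mki67, Top2a, Casc5 and Hmmr were not called between TNF and Fbxl2 siRNA. The log2 fold change of Ttk was -0.02, with a 95% interval of -0.18 to 0.14 (edgeR adjusted p = 0.82), and that of Mki67 was -0.03, with an interval of -0.16 to 0.09 (edgeR adjusted p = 0.654). For Top2a it was -0.10 (-0.22 to 0.01, edgeR adjusted p = 0.118), for Casc5 -0.13 (-0.29 to 0.02, edgeR adjusted p = 0.123) and for Hmmr -0.14 (-0.28 to just under 0, edgeR adjusted p = 0.0776). The intervals of these 5 genes end short of the members' median difference of -0.37. They were picked as not called, and with standard errors this small such an end was bound to follow. Cenpf (edgeR adjusted p = 0.0468), Kif11 (0.0479), Kif23 (0.033) and Ncapd2 (0.0178) were called but lay near the threshold, and each of these 4 lost the call without Fbxl2 siRNA library A, with adjusted p-values of 0.216, 0.0921, 0.0683 and 0.0691. Cenpf also lost it without TNF library B or C, control library B or proliferation library B or C. Kif11 lost it without any 1 of the TNF or Fbxl2 siRNA libraries, control library B or proliferation library C. Kif23 lost it without TNF library B or C or any 1 Fbxl2 siRNA library, and Ncapd2 without TNF library A or Fbxl2 siRNA library C. Casc5 gained the call without TNF library A (edgeR adjusted p = 0.0141), and Hmmr without TNF library A (0.0386), control library A (0.0489) or proliferation library B (0.0449). In all, 21 to 26 of the 30 members were called when any library was left out.

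**Figure D5:**
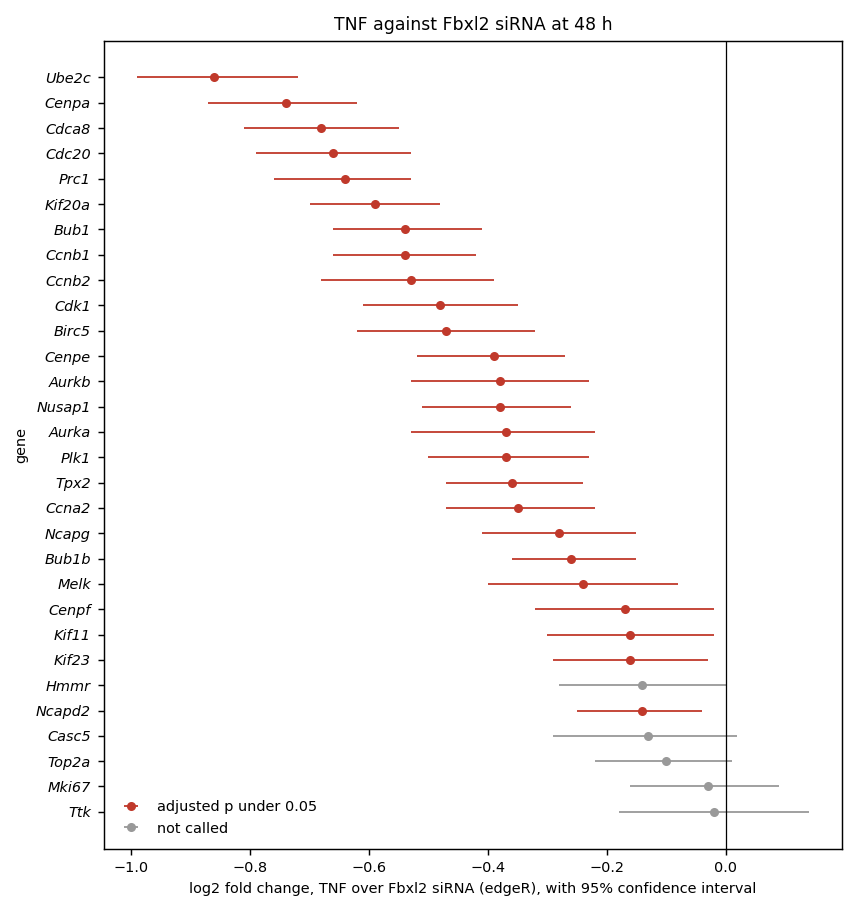
Log2 fold change of TNF over Fbxl2 siRNA for the 30 genes with 95% confidence intervals from edgeR, sorted by size. Red points passed an adjusted p under 0.05 and grey points did not. The points run from -0.86 for Ube2c to -0.02 for Ttk, and the 5 grey genes are Hmmr, Casc5, Top2a, Mki67 and Ttk.

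Neither treated group reached the proliferation level. In TNF libraries 30 of the 30 members were lower than in proliferation libraries (edgeR adjusted p under 0.05), where 36.5% of all genes tested were called lower. The median log2 fold change was -1.11, with Ube2c (-1.46 ± 0.06 SE) and Ncapg (-1.33 ± 0.06) the farthest below and Mki67 (-0.65 ± 0.06) and Ttk (-0.73 ± 0.07) the nearest. In Fbxl2 siRNA libraries 30 of the 30 members were also lower than in proliferation libraries, where 31.1% of all genes tested were called lower. Here the median was -0.67, with Hmmr (-1.09 ± 0.06) and Casc5 (-1.06 ± 0.07) the farthest below and Nusap1 (-0.41 ± 0.06) the nearest, ahead of Cenpa (-0.48 ± 0.06) and Prc1 (-0.48 ± 0.05). Expressed as a share of the gap between control and proliferation means, the median member stood at 28.6% of the gap in TNF libraries and 47.7% in Fbxl2 siRNA libraries. Ube2c had the lowest share with TNF (17.5%) and one of 55.6% with Fbxl2 siRNA, whereas Mki67 had 44.9% with TNF and 47.2% with Fbxl2 siRNA. Hmmr had 25.3% with TNF and the lowest share with Fbxl2 siRNA, 31.0%.

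Other genes of mitosis were taken from 6 lists with 150 genes, of which 149 were tested. Like the members, the lists were chosen with earlier results of these data known, so their counts are a description. In control libraries 128 were lower and 7 higher than in proliferation libraries, with a median log2 fold change of -1.31. Over control, 114 were higher and 3 lower with TNF (median 0.69), and 117 were higher and 8 lower with Fbxl2 siRNA (median 0.80). Between TNF and Fbxl2 siRNA, 20 were higher and 73 lower in TNF libraries (median -0.15). The calls are edgeR's at an adjusted p under 0.05 over all genes tested. Of all genes tested, 38.4% were called higher and 38.9% lower in control over proliferation libraries, 31% higher and 23.6% lower with TNF over control, 34.1% higher and 29.8% lower with Fbxl2 siRNA over control, and 29.9% higher and 30.6% lower in TNF over Fbxl2 siRNA libraries. These shares are the background for the counts of each list. In TNF over Fbxl2 siRNA libraries, 7 genes were lower and 5 higher of the 21 for condensin, cohesin and separase. The counts were 5 and 4 of 17 for the anaphase-promoting complex and 6 and 4 of 21 for regulators of mitotic transcription. They were 23 and 3 of 38 for the kinetochore, 23 and 3 of 36 for the spindle and 9 and 1 of 16 for mitotic entry. Pds5b (0.42) was the highest and Pttg1 (-0.76) the lowest for condensin, cohesin and separase in this comparison. For the transcription regulators these were Rbl2 (0.59) and E2f2 (-0.89). Numa1 (0.45) was the highest spindle gene and Anapc10 (0.23) the highest of the anaphase-promoting complex. Each of these genes was called.

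Of the kinetochore and checkpoint list, 38 of 38 tested genes were lower in control than in proliferation libraries, 35 were higher with TNF and 37 higher with Fbxl2 siRNA than in control. Ska1, which couples kinetochores to microtubules, fell most in control libraries (-2.48), and Sgol1, the protector of centromeric cohesion, rose most with TNF (1.08) and with Fbxl2 siRNA (1.43). Between TNF and Fbxl2 siRNA, 23 were lower and 3 higher in TNF libraries, with Cenpw (-0.73) lowest and Zw10 (0.32), Mis12 (0.18) and Hjurp (0.14) higher. Mad1l1, a checkpoint protein, was not called with TNF (0.04) or Fbxl2 siRNA (-0.09). Of the 36 spindle and cytokinesis genes, 35 were lower in control than in proliferation libraries, and 33 were higher with TNF and 33 with Fbxl2 siRNA than in control. Kif18a, a motor that limits microtubule length, fell most in control libraries (-2.17), Psrc1 rose most with TNF (1.13) and Cep55, which acts in the last step of cytokinesis, rose most with Fbxl2 siRNA (1.49). Tacc3 had the largest difference between TNF and Fbxl2 siRNA (-0.54). Numa1, which anchors microtubules at spindle poles, went the other way: it was higher in control than in proliferation libraries (0.37 ± 0.08 SE) and lower with Fbxl2 siRNA than in control (-0.38 ± 0.08).

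Kinases and phosphatases of mitotic entry were 13 of 16 lower in control than in proliferation libraries, and 11 were higher with TNF and 11 with Fbxl2 siRNA than in control. Cdc25c, a phosphatase that activates Cdk1, rose by 0.78 ± 0.07 with TNF and 1.57 ± 0.07 with Fbxl2 siRNA. Its relative Cdc25b was lower with TNF than in control (-0.17 ± 0.05) and had the largest difference of its list between TNF and Fbxl2 siRNA (-0.96 ± 0.05). Ensa (0.25) and Arpp19 (0.17), inhibitors of a mitotic phosphatase, were higher in control than in proliferation libraries. Pkmyt1, an inhibitory kinase of Cdk1, rose most of the list with TNF (0.94), and Cdc25a was the only gene of the list higher in TNF than in Fbxl2 siRNA libraries (0.22). Nek6, a mitotic kinase, was higher in control than in proliferation libraries (0.67 ± 0.05) and lower with TNF than in control (-0.24 ± 0.05). In the list of condensin, cohesin and separase genes, 20 of 21 were lower in control than in proliferation libraries, 17 were higher with TNF, and with Fbxl2 siRNA 14 were higher and 2 lower than in control. Their median log2 fold change over control was 0.63 with TNF and 0.41 with Fbxl2 siRNA, the reverse of the members' order. The median of TNF over Fbxl2 siRNA for these genes was -0.08. Cdca5, the cohesin protector sororin, fell most in control libraries (-2.08) and rose most with TNF (1.18). Pttg1, the separase inhibitor securin, had 29.9, 30.9 and 31.3 CPM in TNF libraries, 47.8, 55.4 and 52.7 in Fbxl2 siRNA libraries, 16.0, 17.2 and 17.4 in control libraries and 66.4, 68.3 and 66.9 in proliferation libraries, with all groups separate. Its rise with Fbxl2 siRNA (1.62 ± 0.06) was the largest of its list. Pds5b, a cohesin regulator, and Top2b, a relative of Top2a, were lower with Fbxl2 siRNA than in control, by log2 values of -0.28 ± 0.05 and -0.16 ± 0.05.

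The list of the anaphase-promoting complex holds its subunits, the coactivator Fzr1, the enzyme Ube2s and the inhibitor Fbxo5. Of these 17 genes, 9 were lower and 1 higher in control than in proliferation libraries (median -0.31), 7 were higher with TNF (median 0.10), not far from the 31% of all genes tested, and 9 were higher and 1 lower with Fbxl2 siRNA (median 0.14). Fbxo5 had the largest changes of the list, with -2.06 ± 0.07 in control over proliferation, 0.80 ± 0.08 with TNF and 1.15 ± 0.07 with Fbxl2 siRNA. Anapc13 was the gene higher in control than in proliferation libraries (0.32), Anapc1 the one lower with Fbxl2 siRNA than in control (-0.15), and Ube2s, which extends ubiquitin chains, had the largest difference between TNF and Fbxl2 siRNA (-0.59). Among 21 regulators of mitotic transcription, 13 were lower and 2 higher in control than in proliferation libraries (median -0.35), 11 were higher and 1 lower with TNF (median 0.18), and 13 were higher and 4 lower with Fbxl2 siRNA (median 0.29). Mybl2, which encodes B-Myb, had 17.3, 17.7 and 19.6 CPM in TNF libraries, 19.0, 19.2 and 19.7 in Fbxl2 siRNA libraries, 6.86, 7.91 and 7.77 in control libraries and 29.2, 30.6 and 34.4 in proliferation libraries. The TNF and Fbxl2 siRNA libraries overlapped. Mybl2 had the largest fall of its list in control libraries (-2.07 ± 0.08) and the largest rise with TNF (1.28 ± 0.08) and Fbxl2 siRNA (1.37 ± 0.08), and was not called between TNF and Fbxl2 siRNA (-0.09, edgeR adjusted p = 0.329).

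Foxm1, named after its values had been seen because of its role at these promoters, had 68.9, 70.1 and 68.8 CPM in TNF libraries, 76.4, 76.1 and 76.4 in Fbxl2 siRNA libraries, 37.1, 41.4 and 43.8 in control libraries and 121, 111 and 124 in proliferation libraries. It rose over control by 0.77 ± 0.06 with TNF and 0.91 ± 0.06 with Fbxl2 siRNA. Rbl1, Lin9, Lin54, Lin37 and Lin52 of the same list were also named after their values had been seen. Rbl1, a relative of Rbl2, rose over control like the members, by 0.85 with TNF and 0.86 with Fbxl2 siRNA. It was lower in control than in proliferation libraries (-1.63). Over control, Lin9 and Lin54 were called higher with both treatments, whereas Lin37 and Lin52 were called with neither. Rbl2, the pocket protein p130 of the DREAM complex, moved differently from the members. It had 76.8, 70.1 and 72.8 CPM in TNF libraries, 48.4, 45.8 and 52.1 in Fbxl2 siRNA libraries, 75.5, 74.0 and 79.4 in control libraries and 60.9, 60.6 and 60.8 in proliferation libraries. The Fbxl2 siRNA libraries were the lowest and the TNF and control libraries overlapped, with log2 fold changes over control of -0.06 ± 0.05 for TNF (edgeR adjusted p = 0.352) and -0.65 ± 0.05 for Fbxl2 siRNA (edgeR adjusted p = 1.23e-09). Against the majority of the list with Fbxl2 siRNA, Nfya (-0.19), Tfdp2 (-0.17) and E2f3 (-0.15) were also lower than in control, and with TNF E2f2 was lower (-0.69). In control over proliferation libraries Rbl2 (0.33) and Nfya (0.16) were higher.

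Counts of some members may include reads of a neighbour. In GENCODE M21, exons of 11 of the 30 members overlap with those of another gene, 9 of them on the opposite strand. Apart from Tnnc2, the partners with a row in the counts table varied less between groups than the members did, save for Oip5, a centromere gene beside Nusap1, at 8.86 CPM in TNF, 10.3 in Fbxl2 siRNA, 4.65 in control and 19.5 in proliferation libraries. Near-identical copies elsewhere in the genome were not examined.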

How the data were processed

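RNA was sequenced from C2C12 cells in 12 libraries, 3 in each of 4 groups taken from the labels. The authors deposited whole-number read counts per gene symbol. CASAVA, DESeq2 and the build mm10 are named in the submitters' processing notes, per the labels without roles. How reads were aligned and counted, with which annotation and strand setting, is not given in the sources used here. The authors' own comparison tables were not used.

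The deposited counts went unchanged into edgeR 4.0.16 (R 4.3.3). Its filterByExpr kept 12736 of 21232 genes, TMM gave the scaling, and the robust quasi-likelihood fit used all 12 libraries, with a mean for each of the 4 groups. P-values were adjusted by Benjamini-Hochberg over all genes tested, and calls were made at adjusted p-values under 0.05. The standard error (SE) of a log2 fold change is its absolute value over the square root of the F statistic. Levels are CPM on totals multiplied by TMM factors, given per library or as mean ± SD (n = 3). Library totals ran from 26416978 to 32917763 counts. The scripts were tested on simulated data in which few genes changed, up and down alike and only in the TNF group. Far more genes were called in the comparisons here, so that test does not cover the scaling of these data. Replicates of a group differed by more than sampling noise, with a chi-square per degree of freedom of 1.60 to 21.3, and none held identical values.

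The members, the 6 lists (150 genes, of which Sgol2a was absent from the table) and the markers were chosen with earlier results of these data known. Values in every library are given for Mki67, Ccnb1, Cdk1, Plk1, Aurkb, Bub1b, Cenpa, Top2a and Kif11, for the members with the 2 largest and the 2 smallest changes of a comparison, and for members not called. Genes were named from each list as the highest, the lowest or called against the majority. Not all such genes are named for each comparison. Casc5 is listed as Knl1 in RefSeq. Exon overlaps and gene positions come from GENCODE M21 (GRCm38), and promoter windows from RefSeq (GRCm38.p6), which held 26 of the 30 members. The alternatives were DESeq2 1.42.0, RLE factors, no filter on low counts, a fit of 2 groups only, a replicate block and leaving out libraries, and a fit on library totals with no scaling factors was added after seeing the data.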

Additional observations from a re-analysis of the deposited data

How the results depend on the processing

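In each of the 5 comparisons other than TNF against Fbxl2 siRNA, 30 of the 30 members were called in the reported direction under all 21 alternatives. Between TNF and Fbxl2 siRNA the number of members called lower was 25 as reported, 21 to 26 when libraries were left out, 22 with DESeq2, 22 with RLE factors, 23 with no filter on low counts, 26 with 2 groups only and 27 on library totals with no scaling factors (added after seeing the data). The members that moved across the threshold in that comparison were Cenpf, Kif11, Kif23 and Ncapd2, which lost the call under 11, 13, 9 and 5 of the 21 alternatives, and Hmmr, Casc5 and Top2a, which gained it under 6, 2 and 1. The cause was not tested. No called member changed direction in any comparison. The adjusted p of Ttk ran from 0.344 to 0.999 and that of Mki67 from 0.25 to 0.987 over the alternatives. Their log2 fold changes ran from -0.09 to 0.08 for Ttk and from -0.09 to 0.01 for Mki67, so the sign was not settled. With a replicate block 25 members were called between TNF and Fbxl2 siRNA and 30 in each other comparison. Deviations from the group means correlated weakly between libraries of the same letter, at -0.096 to 0.183, with 3 of 18 pairs over 0.1. Between other letters the range was -0.156 to 0.131. Correlations this weak cannot tell whether a letter marks a shared culture or run. In the window from 75 bases before to 50 bases after the start (the promoter table ends there, so the planned 150 bases could not be had), the share of member windows was 74.1% for the CHR, against 4.43% of the windows of tested genes, 70.4% for CCAAT, against 20.6%, and 7.41% for the E2F-type site, against 1.34%. For the GC box it was 51.9%, against 47.0%, a smaller gap than in the whole window (88.9%, against 61.3%). The effect of depth was not tested; the lowest count of a member in a library was 458. Intervals rest on a spread shared by the 4 groups and estimated from all 12 libraries. They cover differences between libraries of a group only.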

Other observations

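Outside the members and the lists, the 10 genes whose level followed the mean of the 30 members most closely over the 12 libraries were Prr11, Ercc6l, Fanci, C330027C09Rik, Dbf4, Hmgb2, Ccnf, Gas2l3, Fam111a and Eps8, with Pearson's r of 0.9946 to 0.9985. The r is a description over 12 libraries in 4 groups and mostly restates the differences between the group means. Several have roles around DNA replication and mitosis: Dbf4 activates the kinase that fires replication origins, Fanci acts in the repair of DNA crosslinks, and Ercc6l is a helicase of the bridges between separating chromatids. Dbf4 changed by 0.91 with TNF over control, 1.15 with Fbxl2 siRNA over control and -1.93 in control over proliferation (log2, edgeR). Eps8, a regulator of actin and signalling by growth factor receptors, changed by 0.65, 0.85 and -1.47 in the same comparisons. Among the members themselves, the correlation of a gene with the mean of the other members over the 12 libraries was lowest for Mki67 and Ttk (0.975 each) and next for Ube2c (0.978).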
